A study of Mus musculus with 9 samples.

Results

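The heat shock genes described here are 10 mouse genes of the cytosolic stress response, picked by symbol from the 37882 genes of the deposited table: *Hspa1a*, *Hspa1b*, *Hspa8*, *Hsp90aa1*, *Hsp90ab1*, *Hsph1*, *Hspb1*, *Dnajb1*, *Dnaja1* and *Hsf1*. Each symbol matched exactly 1 row. The genes were proposed with fold changes against control of a longer list of immediate early and heat shock genes already known. Their differences between each mutant and control are therefore given as a description, with no test of their own. Expression was measured by RNA sequencing in LSK cells, a marrow fraction sorted for Sca1 and cKit and against mature lineage markers that holds blood stem and early progenitor cells, from 9 mice. The 3 K36M mice carried rtTA at Rosa26 and histone H3 with lysine 36 replaced by methionine at Col1a1. The 3 K9M mice carried rtTA at Rosa26 and the lysine 9 to methionine mutant at Col1a1. The 3 rtTA control mice carried the doxycycline-dependent activator rtTA at Rosa26 and no histone transgene. All 9 mice were on a B6/129 background, were 6 to 8 weeks old, and drank water with doxycycline at 2 mg/ml and sucrose at 10 mg/ml. No group carried an unmutated histone transgene, so an effect of the mutation and an effect of carrying an H3 transgene cannot be told apart against rtTA.

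Heat shock proteins are chaperones that keep other proteins folded and rescue those that unfold under heat or other stress. HSP70 proteins bind exposed stretches of unfolded clients in a cycle driven by ATP, J proteins deliver the clients and start the cycle, and HSP110 proteins reset HSP70. HSP90 proteins finish the folding of kinases, steroid receptors and other signalling proteins. Under stress the transcription factor HSF1 forms trimers on heat shock elements, which are alternating GAA and TTC units in the promoters of these genes. Blood stem cells are known to make protein slowly and to be sensitive to its misfolding.

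RefSeq start-site sequences (GRCm38.p6, the same build as mm10) were at hand for 6 of the 10 genes, namely *Hspa1a*, *Hspa1b*, *Hsph1*, *Hspb1*, *Dnajb1* and *Dnaja1*. They are shown because HSF1 acts through such promoters and because the first 2 sequences are nearly the same. A 2-unit element (GAANNTTC or TTCNNGAA, which read the same on both strands) was searched for in the 250 bases before the start. It was found before at least 1 annotated start of 5 of these 6 genes, against 14.5% of 27025 genes (12.8% of 32851 starts). Genes with several starts had more chances of a match. Capitals mark the GAA and TTC units of each match, and every sequence reads 5′ to 3′ on the gene's strand.
Hspa1a, chr17:34972157-34972406, minus strand: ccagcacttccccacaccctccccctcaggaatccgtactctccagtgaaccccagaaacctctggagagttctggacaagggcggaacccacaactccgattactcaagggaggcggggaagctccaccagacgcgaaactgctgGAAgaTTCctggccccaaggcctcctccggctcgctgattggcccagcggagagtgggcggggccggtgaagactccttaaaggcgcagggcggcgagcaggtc
Hspa1b, chr17:34959239-34959488, minus strand: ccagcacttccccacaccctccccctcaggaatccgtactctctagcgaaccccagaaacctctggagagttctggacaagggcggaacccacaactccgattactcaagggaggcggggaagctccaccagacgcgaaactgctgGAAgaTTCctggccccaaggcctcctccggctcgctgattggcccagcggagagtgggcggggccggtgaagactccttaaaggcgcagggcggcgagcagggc
Hspb1, chr5:135887669-135887918, plus strand: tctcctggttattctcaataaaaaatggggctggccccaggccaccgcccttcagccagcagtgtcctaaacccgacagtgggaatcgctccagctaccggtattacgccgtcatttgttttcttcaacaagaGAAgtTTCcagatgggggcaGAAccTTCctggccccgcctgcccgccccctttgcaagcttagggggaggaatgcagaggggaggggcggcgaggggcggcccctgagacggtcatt
The *Hspa1a* and *Hspa1b* windows were identical at 247 of 250 bases, and both held GAAgaTTC with its first base 104 bases before the start. *Hspb1* held 2 matches, first bases 117 and 97 bases before the start. For *Dnaja1* and *Hsph1* only short stretches around the matches are shown. The matches in the first 2 stretches lie before a RefSeq start but inside an exon of the same gene in the GENCODE M21 annotation. *Dnaja1* had no match before its other RefSeq starts.
Dnaja1, chr4:40722336-40722359, plus strand: agcctctaGAAaaTTCtacgaggc
Hsph1, chr5:149636354-149636377, minus strand: tagaatctTTCtcGAAggctcgag
Hsph1, chr5:149636280-149636308, minus strand: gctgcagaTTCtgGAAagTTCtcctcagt
The last stretch lies after both RefSeq starts of *Hsph1* and holds a 3-unit element (TTCNNGAANNTTC, searched on both strands with GAANNTTCNNGAA, each of which contains the 2-unit letters). In the 250 bases before the start, 0 of the 6 genes held such an element, against 0.514% of all genes. In the window from 250 bases before to 50 bases after the start, 1 of the 6 genes held it, against 0.662% of all genes. *Dnajb1* had no match of either kind in these windows. A match of letters is a description and does not show that HSF1 binds there.

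Levels are in RPKM, reads scaled to transcript length and library size by the authors, so genes can be compared with each other. Library depth, read from the steps of the lowest values, was between about 15860000 and 50310000 reads. Sort markers were present in every library. *Kit* (cKit) was at 53.3, 71.1 and 74.2 RPKM in K36M mice, 86.2, 81.1 and 92.0 RPKM in K9M mice and 88.1, 95.5 and 102.5 RPKM in rtTA mice, lower in every K36M library than in any other (log2 difference -0.53 against rtTA, limma adjusted p = 0.0918). *Ly6a* (Sca1) was between 118.8 and 292 RPKM. The gene-level table does not show the mutant codons. *H3f3a*, an H3.3 gene, was at 489.8, 408.9 and 480.4 RPKM in K36M mice, 318.7, 284.3 and 295.6 RPKM in K9M mice and 256.2, 191.5 and 223.7 RPKM in rtTA mice. Genes listed as markers of other cell types were also read, and no cells are named from them. The summed level of 12 granulocyte genes, none of them at 0 in every library, was 1271 to 3655 RPKM in K36M mice, 1316 to 1732 RPKM in K9M mice and 1489 to 7396 RPKM in rtTA mice, the highest in rtTA replicate 3. The sums pool genes that differ in opposite directions between K36M and rtTA mice. Of the 12 genes, 7 were lower in K36M mice without overlap, as were 10.6% of tested genes. Among them *Ltf* was at a mean of 4.02 RPKM in K36M mice and 114 RPKM in rtTA mice. Another 4 of the 12 had a positive difference. Of these, 1 was higher without overlap, *Prtn3*, averaging 376.9 RPKM in K36M mice and 124.3 RPKM in rtTA mice. *Elane* averaged 583.2 RPKM in K36M mice and 161.7 RPKM in rtTA mice, with overlap. Groups did not overlap in either direction for 22.3% of tested genes. The sum of 8 B cell genes was 31.2 to 36.9 RPKM in K36M mice, 19.9 to 24.9 RPKM in K9M mice and 37.6 to 51.1 RPKM in rtTA mice. The 8 erythroid genes summed to 162 to 300.2, 131.7 to 215.2 and 77.4 to 135.1 RPKM in K36M, K9M and rtTA mice. Of 7 erythroid genes tested in K36M against rtTA, 5 had a positive difference and 2 a negative one. *Hbb-bt* had the largest, averaging 162.9 RPKM in K36M mice and 12.2 RPKM in rtTA mice, while *Car1* averaged 39.39 and 56.05 RPKM. The 9 monocyte and dendritic genes summed to 240 to 540.1, 193.8 to 238.6 and 222.5 to 755.9 RPKM in K36M, K9M and rtTA mice. The 8 T and NK cell genes summed to 112.4 to 156.5, 134.8 to 146.5 and 100 to 106.4 RPKM in K36M, K9M and rtTA mice, with *Cd3e*, *Cd3g*, *Cd8a* and *Ncr1* under 1 RPKM in every library. The 7 stromal and endothelial genes summed to 39.6 to 52.9, 29.3 to 35.4 and 29.8 to 41.9 RPKM, with *Cxcl12*, *Col1a1*, *Lepr*, *Cdh5* and *Kdr* under 1 RPKM in every library. In bulk RNA, fewer cells of a type and less RNA per cell cannot be told apart. The part of any such cells, and of the *Kit* difference, in the heat shock values was not tested.

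The 10 genes spanned a wide range of levels, in nearly the same order in each group. *Hsp90ab1*, the constitutive HSP90, was the most abundant, at 1355 ± 171 RPKM in K36M mice, 1205 ± 114 RPKM in K9M mice and 1114 ± 84.7 RPKM in rtTA mice (SD, n = 3 each). *Hspa8*, the constitutive HSP70 called HSC70, came next, followed by *Hsp90aa1*, the inducible HSP90. *Dnajb1* and *Hspb1* came after these, then *Dnaja1*, *Hsf1*, *Hsph1* and *Hspa1b*, with *Hspa1a* lowest. Only in rtTA mice did *Hspa1b*, at 15.2 RPKM, stand above *Hsph1*, also at 15.2 RPKM. Ranges of neighbours in this order overlapped for 3 of 9 neighbouring pairs in K36M mice, 1 of 9 in K9M mice and 6 of 9 in rtTA mice. In rtTA mice the overlapping pairs included *Hsp90ab1* and *Hspa8*, and in every group *Hsph1* and *Hspa1b*. Reads of *Hspa8*, *Hspb1*, *Dnaja1*, *Hspa1a* and *Hspa1b* can be shared with near-identical copies described below. Their places in this order, and that of *Hsp90ab1* above *Hspa8*, depend on how such reads were placed, which is not known. The *Hspa8* copy *Gm8355* alone averaged 498.6 RPKM over all libraries.

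By limma, none of the 10 genes was called in any comparison at an adjusted p under 0.05. The counts were 0 of 10 for K36M against rtTA, where limma called 1.5% of 12926 genes (0.572% higher and 0.928% lower), 0 of 10 for K9M against rtTA, where 0.116% were called (0.0928% higher and 0.0232% lower), and 0 of 10 for K36M against K9M, where 2.52% were called (1.02% higher and 1.5% lower). At an unadjusted p under 0.05 the counts were 3, 1 and 0 of 10, against 19.1%, 7.11% and 18.8% of tested genes, and no other test was run. All 10 genes passed the filter on low values in every setting tried. Groups did not overlap for 2 of the 10 genes in K36M against rtTA (22.3% of tested genes), 1 in K9M against rtTA (12.5%), and 0 in K36M against K9M (27.9%). All 3 of these were lower in the mutant, as were 10.6% and 5.43% of tested genes in the 2 comparisons with rtTA. Both mutant groups are compared with the same 3 rtTA mice, so their values are set side by side and nothing is read from their likeness.

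Among the 10 genes, the inducible HSP70 genes had the most negative differences in K36M against rtTA. *Hspa1a* (ENSMUSG00000091971, chromosome 17, 34969190 to 34972156 on mm10) was at 4.17, 3.47 and 2.18 RPKM in K36M replicates 1 to 3, 3.67, 6.94 and 3.70 RPKM in K9M replicates 1 to 3 and 7.85, 10.9 and 4.37 RPKM in rtTA replicates 1 to 3. Every K36M library was below every rtTA library, closely so for K36M replicate 1 and rtTA replicate 3. K9M replicate 2 lay above rtTA replicate 3, so those groups overlapped. The log2 difference was -1.08 (SE 0.35) for K36M against rtTA and -0.61 (SE 0.35) for K9M against rtTA. *Hspa1b* (ENSMUSG00000090877, chromosome 17, 34956436 to 34959238), its neighbour, was at 12.8, 8.27 and 5.21 RPKM in K36M mice, 8.94, 14.3 and 8.22 RPKM in K9M mice and 16.6, 20.6 and 8.49 RPKM in rtTA mice. Both mutant groups overlapped the rtTA mice here, through the low value of rtTA replicate 3. Its log2 difference was -0.76 (SE 0.38) for K36M and -0.47 (SE 0.38) for K9M against rtTA.

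Coding sequences of *Hspa1a* and *Hspa1b* were 99.4% identical, with a longest identical run of 638 bases. Reads of one can therefore be placed on the other, and the split between them is uncertain. Their summed level was 16.9, 11.7 and 7.39 RPKM in K36M mice, 12.6, 21.3 and 11.9 RPKM in K9M mice and 24.4, 31.6 and 12.9 RPKM in rtTA mice. For the sum the K36M and rtTA groups overlapped, since K36M replicate 1 lay above rtTA replicate 3. *Hspa1a* also shares 19% of its exon bases with *Gm20481* on the opposite strand, at a mean of 5.21 RPKM, and whether counting used the strand is not given in the sources used here.

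*Hspa8* (ENSMUSG00000015656, chromosome 9) was at 654.7, 946.1 and 904.8 RPKM in K36M mice, 574.8, 695.6 and 594.9 RPKM in K9M mice and 786.8, 1083 and 827.3 RPKM in rtTA mice. All 3 K9M libraries were below all 3 rtTA libraries, while the K36M mice overlapped both other groups. The log2 difference was -0.11 (SE 0.19) for K36M and -0.52 (SE 0.19) for K9M against rtTA. A blastn search (90% identity or more, along 300 bases or more) found copies of the *Hspa8* coding sequence in 12 other genes. Values were at hand for 4 of them, which all reached 1 RPKM, and the other 8 were not analysed here. The processed pseudogene *Gm8355* (98.7% identical over 1938 bases) stood at 505, 581.1 and 365.4 RPKM in K36M mice, 553.1, 457.7 and 496.9 RPKM in K9M mice and 536.7, 637.9 and 353.7 RPKM in rtTA mice. *Gm8355* came near *Hspa8* in K9M replicate 1 (553.1 against 574.8 RPKM) and lay well under it in rtTA replicate 3 (353.7 against 827.3 RPKM). How reads were shared between the gene and its copies can bear on every *Hspa8* value. The 4 libraries lowest for *Hspa8*, K36M replicate 1 and the 3 of K9M, were also the 4 in which another copy, *Gm26825*, stood at 39.8 to 43.2 RPKM, against 1.36 to 1.78 RPKM in the other 5, and its part in the *Hspa8* values was not tested. Without K36M replicate 1 the log2 difference of *Hspa8* was 0.06 for K36M against rtTA.

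Among the J proteins, which partner HSP70, *Dnajb1* (ENSMUSG00000005483, chromosome 8), the main cytosolic stress-inducible J protein, was at 74.0, 77.1 and 59.4 RPKM in K36M mice, 68.1, 87.9 and 69.7 RPKM in K9M mice and 100.4, 99.4 and 81.1 RPKM in rtTA mice. All K36M libraries were below all rtTA libraries, and K9M replicate 2 was above rtTA replicate 3. Its log2 difference was -0.42 (SE 0.15) for K36M and -0.32 (SE 0.15) for K9M against rtTA, and the same search found no copy of its coding sequence. *Dnaja1* (ENSMUSG00000028410, chromosome 4), a constitutive and inducible J protein, was at 24.9, 30.3 and 25.3 RPKM in K36M mice, 25.7, 30.5 and 22.5 RPKM in K9M mice and 24.0, 41.6 and 22.8 RPKM in rtTA mice. The groups overlapped, and replicate 2 was highest in each. Its log2 difference was -0.08 (SE 0.22) for K36M and -0.12 (SE 0.22) for K9M against rtTA. Its processed copy *Gm15542*, 99.4% identical over 1191 bases, stood higher than the gene, at 59.8, 68.0 and 59.7 RPKM in K36M mice, 51.7, 69.3 and 44.1 RPKM in K9M mice and 43.0, 98.3 and 47.6 RPKM in rtTA mice. Replicate 2 was the highest library of each group there too. *Dnaja1* also shares 7% of its exon bases with *Smu1* on the opposite strand, at a mean of 39.0 RPKM.

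**Figure D1:**
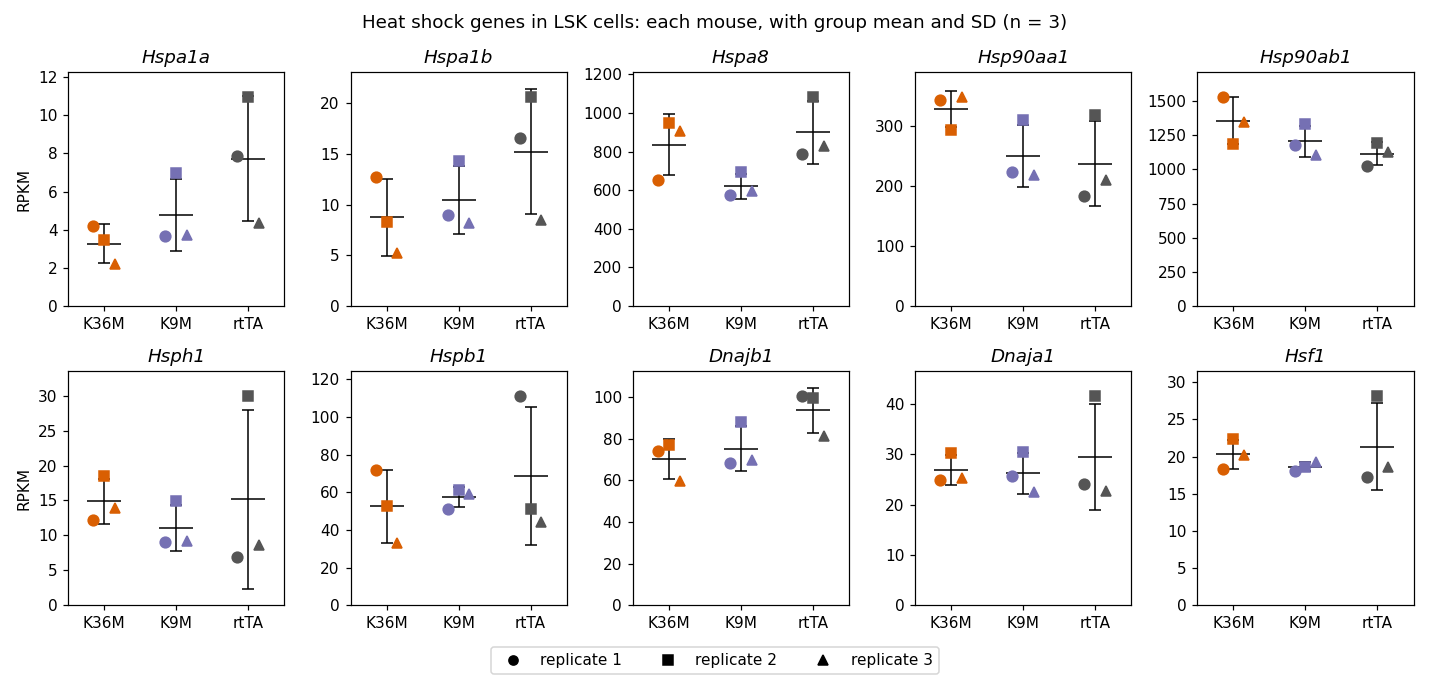
RPKM of the 10 heat shock genes in each of the 9 libraries, with K36M, K9M and rtTA groups on the horizontal axis; symbols mark replicate numbers, and the line and bar are the mean and SD of 3 mice. Each vertical axis starts at 0 and has its own scale. *Hspa1a* and *Dnajb1* show K36M mice below rtTA mice without overlap, and *Hspa8* shows K9M mice below rtTA mice; for *Hsph1* the control of replicate 2, at 29.9 RPKM, stands far above all other libraries.

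The HSP90 genes had positive differences in both mutants. *Hsp90aa1* (ENSMUSG00000021270, chromosome 12) was at 342.2, 293.8 and 348 RPKM in K36M mice, 223.4, 309.3 and 218 RPKM in K9M mice and 183.4, 317.4 and 210.4 RPKM in rtTA mice. The K36M libraries were the narrowest group and overlapped the others only through replicate 2 of K9M and of rtTA. The log2 difference was 0.50 (SE 0.21) for K36M and 0.10 (SE 0.21) for K9M against rtTA. *Hsp90ab1* (ENSMUSG00000023944, chromosome 17) was at 1529, 1188 and 1349 RPKM in K36M mice, 1180, 1330 and 1106 RPKM in K9M mice and 1025, 1194 and 1124 RPKM in rtTA mice, with overlap between all groups. Its log2 difference was 0.28 (SE 0.15) for K36M and 0.11 (SE 0.15) for K9M against rtTA. With quantile normalization the K9M differences turned to -0.024 for *Hsp90aa1* and -0.08 for *Hsp90ab1*, and that of *Hsp90aa1* was -0.065 without rtTA replicate 1 and -0.063 without K9M replicate 2. Copies of the HSP90 genes with values here, 3 of 4 for *Hsp90aa1* and 2 of 2 for *Hsp90ab1*, stayed under 1 RPKM, and the other copy was not analysed here.

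*Hsph1* (ENSMUSG00000029657, chromosome 5), the HSP110 exchange factor, was at 12.2, 18.5 and 13.9 RPKM in K36M mice, 9.03, 14.9 and 9.22 RPKM in K9M mice and 6.93, 29.9 and 8.64 RPKM in rtTA mice. The rtTA libraries included both the highest and the lowest of the 9 values. The log2 difference was 0.25 (SE 0.47) for K36M and -0.18 (SE 0.47) for K9M against rtTA. Without rtTA replicate 2 these became 0.88 and 0.45, and without rtTA replicate 1 they became -0.14 and -0.57, so the direction rests on single control mice. *Hspb1* (ENSMUSG00000004951, chromosome 5), the small heat shock protein HSP25, was at 71.8, 52.6 and 33.4 RPKM in K36M mice, 51.4, 61.4 and 59.3 RPKM in K9M mice and 111.1, 51.0 and 44.4 RPKM in rtTA mice. One control library, replicate 1, was above all others. The log2 difference was -0.33 (SE 0.35) for K36M and -0.14 (SE 0.35) for K9M against rtTA, and 0.08 and 0.26 without rtTA replicate 1. Its processed copy *Hsp25-ps1* (99.4% identical over 627 bases) was highest in the same library, at 79.9 RPKM against 20.4 to 45.2 RPKM in the other libraries.

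*Hsf1* (ENSMUSG00000022556, chromosome 15), the stress-sensing transcription factor itself, had a smaller residual SD, at 0.23 on the log2 scale, than the other 4 of the 5 least abundant genes. It stood at 18.4, 22.3 and 20.3 RPKM in K36M mice, 18.1, 18.6 and 19.3 RPKM in K9M mice and 17.3, 28.1 and 18.6 RPKM in rtTA mice. Apart from rtTA replicate 2 the 8 libraries lay between 17.3 and 22.3 RPKM. The log2 difference was -0.04 (SE 0.17) for K36M and -0.16 (SE 0.17) for K9M against rtTA, and without rtTA replicate 2 it was 0.17 and 0.05. HSF1 is controlled mainly at the level of the protein, which these data do not measure.

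**Figure D2:**
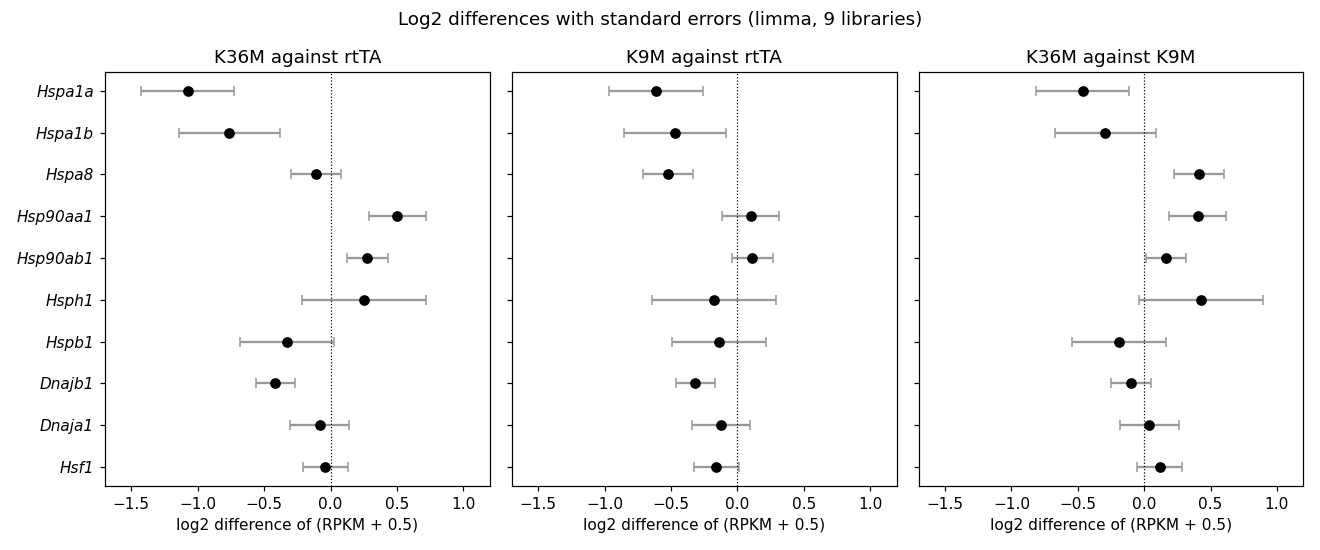
Log2 difference of RPKM + 0.5 for the 10 heat shock genes (horizontal axis, with bars of 1 standard error from limma on 9 libraries) in K36M against rtTA, K9M against rtTA and K36M against K9M. *Hspa1a* and *Hspa1b* lie furthest left in K36M against rtTA at -1.08 and -0.76, and *Hsp90aa1* furthest right at 0.50.

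Over the 10 genes, 7 had a negative difference in K36M against rtTA, with a median of -0.10, where 47.7% of tested genes were negative and the median of all genes was 0.02. In K9M against rtTA 8 were negative, with a median of -0.17, where 48.7% of tested genes were negative and the median of all genes was 0.01. Without rtTA replicate 2, 4 and 5 of the 10 genes were negative, with medians of 0.10 and -0.08. In K36M against K9M 4 of the 10 genes were negative, with a median of 0.08, where 48.9% of tested genes were negative.

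K36M against K9M compares the mutants with each other and was tested over all genes. Its difference is that of K36M against rtTA minus that of K9M against rtTA. It is therefore not independent of the fold changes already known, and its p-values and intervals are a description too. No gene of the 10 passed, and adjusted p ran from 0.284 for *Hspa8* to 0.946 for *Dnaja1* (limma with Benjamini-Hochberg adjustment). *Hspa8* was higher in K36M by 0.41 (SE 0.19, 95% interval -0.02 to 0.84) and *Hsp90aa1* by 0.40 (SE 0.21, interval -0.08 to 0.89, limma adjusted p = 0.359). Over the other settings the adjusted p of *Hspa8* ran from 0.082 to 0.58. *Hspa1a* had a difference of -0.46 (interval -1.26 to 0.33) and *Hsph1* of 0.43 (interval -0.63 to 1.48), so both directions lie inside these intervals. The narrowest interval was that of *Dnajb1*, from -0.43 to 0.23.

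Mice of one group differed more in these genes than in most. The residual SD on the log2 scale, after removing group means, was 0.69 for *Hsph1*, 0.56 for *Hspa1b*, 0.52 for *Hspb1* and 0.51 for *Hspa1a*, against a median of 0.20 over all tested genes. These 4 genes ranked above 90% of tested genes. *Hsp90ab1*, at 0.14, was the steadiest and ranked above 24.8% of them. Same-number K36M and rtTA libraries deviated alike over all genes, which does not establish that mice were paired. With the replicate number as a block, *Hspb1* ranked above 90.5% of tested genes, *Hsph1* 89.8%, *Hspa1b* 86%, *Hspa1a* 82% and *Hsp90ab1* 55%. *Dnajb1* then had the smallest residual SD of the 10, at 0.117, and *Hspa8* followed at 0.128. Across the 10 genes the median rank was at 74.05% of tested genes without the block and 69.65% with it.

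Replicate 2 was the high library for most of them in the K9M and rtTA groups. K9M replicate 2 was the highest K9M library for 9 of 10 genes, all but *Hsf1*, against 33.5% of tested genes. Among controls, rtTA replicate 2 was the highest for 8 of 10 genes, all but *Hspb1* and *Dnajb1*, against 34.7% of tested genes. K36M replicate 2 was the highest for 5 of 10 genes, *Hspa8*, *Hsph1*, *Dnajb1*, *Dnaja1* and *Hsf1*, against 28% of tested genes. The median deviation of the 10 genes from their group mean was 0.44 in rtTA replicate 2, 0.23 in K9M replicate 2 and 0.12 in K36M replicate 2, while the median of all genes in these libraries lay between -0.01 and 0.01. The labels give no date, litter or batch. Over all tested genes, deviations of same-number K9M and rtTA libraries correlated at 0.162, 0.06 and 0.017 for replicates 1, 2 and 3. These were not all over the 0.1 used as a threshold for pairing.

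Within this pattern the genes fell out in different ways. *Hspa1a*, *Hspa1b*, *Hspb1* and *Dnajb1* were above their group mean in rtTA replicate 1, by 0.11, 0.21, 0.81 and 0.11 on the log2 scale. *Hsph1*, *Hsp90aa1*, *Hsf1*, *Dnaja1*, *Hspa8* and *Hsp90ab1* were below it there, by up to 0.78 for *Hsph1*. In K36M mice *Hspa1a*, *Hspa1b* and *Hspb1* were high in replicate 1 (0.34, 0.60 and 0.51) and low in replicate 3 (-0.46, -0.61 and -0.58), and the furthest of the other 7 genes was *Hspa8* in replicate 1, at -0.33. In rtTA replicate 3, 1 of the 10 genes was above the group mean, at a median of -0.26, where 53.6% of all genes were above it. In K9M replicate 1, 0 of the 10 were above it (54.4% of all genes), and in K9M replicate 3, 2 were (46.7%). With 3 libraries a group, a high replicate 2 by itself lowers the deviations of the others.

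**Figure D3:**
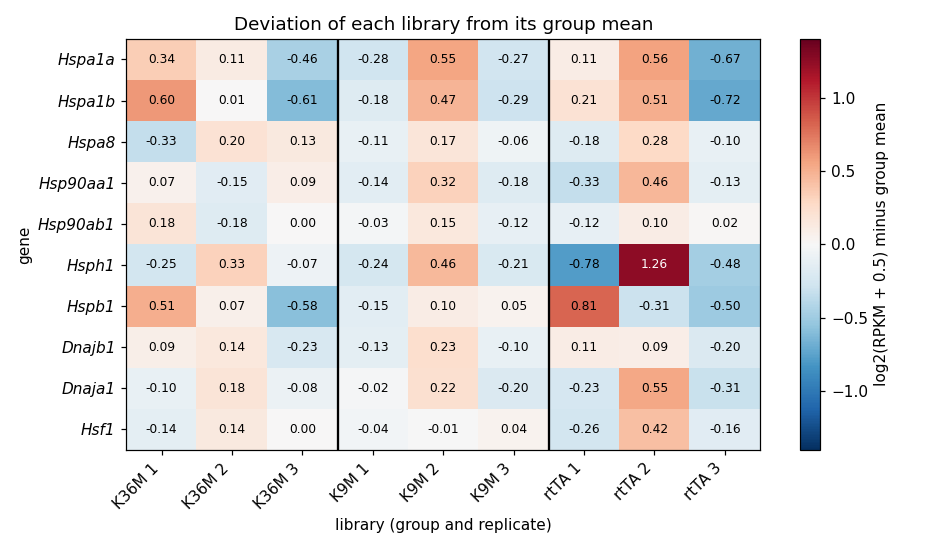
Deviation of log2(RPKM + 0.5) from the group mean (colour and printed value) for the 10 heat shock genes (rows) in the 9 libraries (columns), with lines between K36M, K9M and rtTA. The column of rtTA replicate 2 is the reddest, with *Hsph1* at 1.26, and the K9M replicate 2 column is red for 9 genes.

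Genes outside the 10 whose profile came nearest to their mean profile were named by the mean absolute difference in z score over the 9 libraries. They were *Nkiras1* (0.378), *Zfp692* (0.379), *Slc19a2* (0.379), *Tube1* (0.382) and *Pabpn1* (0.406). *Zfp692* stood at 10.3 RPKM in rtTA replicate 2, against 3.52 to 5.24 RPKM in the other libraries. *Pabpn1*, which encodes a nuclear poly(A)-binding protein, stood at 66.3 RPKM there and 53 RPKM in K9M replicate 2, against 35 to 44.8 RPKM elsewhere. Of the 10 genes, *Dnaja1* (0.422) and *Hsph1* (0.435) were nearest to the mean profile they help to form, and *Hspb1* (0.812) was furthest.

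Other chaperone genes were taken from lists of the partners of these 10. These lists were chosen with earlier results of these data known, so their p-values and calls are a description. In the HSP90 cochaperone list, 12 of 13 tested genes had a positive difference in K36M against rtTA, with a median of 0.22 and 0 called by limma. *Unc45a*, a myosin and HSP90 cochaperone, had 0.44 (limma adjusted p = 0.0801) and *Cdc37*, which hands kinases to HSP90, 0.42 (adjusted p = 0.109). In K9M against rtTA 8 of 13 were positive, with a median of 0.10 and 0 called, *Fkbp5* at 0.26 and *Chordc1* at -0.28 having the smallest p. In K36M against K9M 1 of 13 genes was called higher (1.02% of tested genes). It was *Unc45a*, at 13.2 RPKM in K36M mice and 8.66 RPKM in K9M mice (limma adjusted p = 0.0305). Over 19 other settings its adjusted p ran from 0.0135 to 0.128, and it was called in 3 of 9 fits that left out 1 library.

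Mitochondrial chaperones and the TRiC chaperonin, which folds actin and tubulin, had small positive differences. All 7 tested mitochondrial genes and all 8 TRiC genes were positive in K36M against rtTA, with medians of 0.28 and 0.24, and in K9M against rtTA, with medians of 0.21 and 0.15. None was called by limma. The smallest adjusted p against rtTA were those of *Dnaja3* in K36M (0.33, adjusted p = 0.136) and *Grpel1* in K9M (0.28, adjusted p = 0.597). For TRiC they were *Cct7* in K36M (0.28, adjusted p = 0.226) and *Cct5* in K9M (0.22, adjusted p = 0.76). In K36M against K9M the medians were 0.04 and 0.06 with 0 called.

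The remaining cytosolic partners held no call in any comparison. Other HSP70 and HSP110 genes, 5 of 7 tested, had medians of 0.34 in K36M and 0.01 in K9M against rtTA, with *Hspa14* at 0.35 and *Hspa4*, an HSP110 relative, at 0.34 in K36M. Other J proteins, 9 of 9 tested, had medians of 0.03 and -0.10. *Dnajb4*, a close relative of *Dnajb1*, had the smallest p among them in K36M (-0.63, limma adjusted p = 0.0913), and *Dnaja4* in K9M (-0.63, adjusted p = 0.479). For the exchange factors and BAG genes, 7 of 7 tested, the medians were 0.07 and 0.11, with *Bag1* at 0.37 and *Bag3*, itself a known HSF1 target, at -0.27 in K36M. The genes listed as small heat shock genes, 3 of 5 tested, had medians of -0.24 and 0.12. The 3 were *Hspb6*, *Hspb8* and *Hspb11*, at 0.31, -0.55 and -0.24 in K36M, so these medians do not describe a shared direction. *Hsf2* and *Hsbp1* lay between -0.06 and 0.19 in both mutants against rtTA. In K36M against K9M the medians of these 5 lists ran from -0.34 for small heat shock genes to 0.18 for HSP70 and HSP110 genes.

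Chaperones of the endoplasmic reticulum and immediate early genes are set beside the 10 genes for scale. Of 13 ER chaperone genes, 11 had a positive difference in K36M against rtTA, with a median of 0.41. Of the 13, 1 was called higher, *Calr* (0.82, limma adjusted p = 0.0398), as were 0.572% of tested genes. Over 19 other settings the adjusted p of *Calr* ran from 0.0123 to 0.157, and it was called in 1 of 9 fits that left out 1 library. In K9M against rtTA the median was 0.10 with 0 called, and in K36M against K9M it was 0.36 with 0 called. Of 20 immediate early genes, which answer stimulation within minutes, all had a negative difference in both mutants against rtTA. In K36M 13 of 20 were called lower by limma (0.928% of tested genes), with a median of -1.05. In K9M 1 of 20 was called lower, *Btg2* (0.0232% of tested genes), with a median of -0.88. Groups did not overlap, with the mutant lower, for 17 of 20 in K36M (10.6% of tested genes) and 18 of 20 in K9M (5.43%). Fits without 1 library called 0 to 14 of the 20 in K36M: 0 without K36M replicate 1, 4 without K36M replicate 3, 2 without rtTA replicate 2 and 1 without rtTA replicate 3. With only the K36M and rtTA libraries in the fit 0 of the 20 were called, and with no filter on low values 6. For K9M the count was 13 of 20 with library weights, the same as in K36M with those weights, 6 without rtTA replicate 1 and 0 to 2 in the other settings. *Btg2* in K9M was called in 4 of 9 fits without 1 library. In K36M against K9M the median was -0.25 with 0 called. Fold changes of immediate early genes against rtTA were known beforehand, and the ER chaperone list too was chosen with earlier results known. The calls in both lists are therefore a description, and the difference between these lists and the 10 heat shock genes was not tested.

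**Figure D4:**
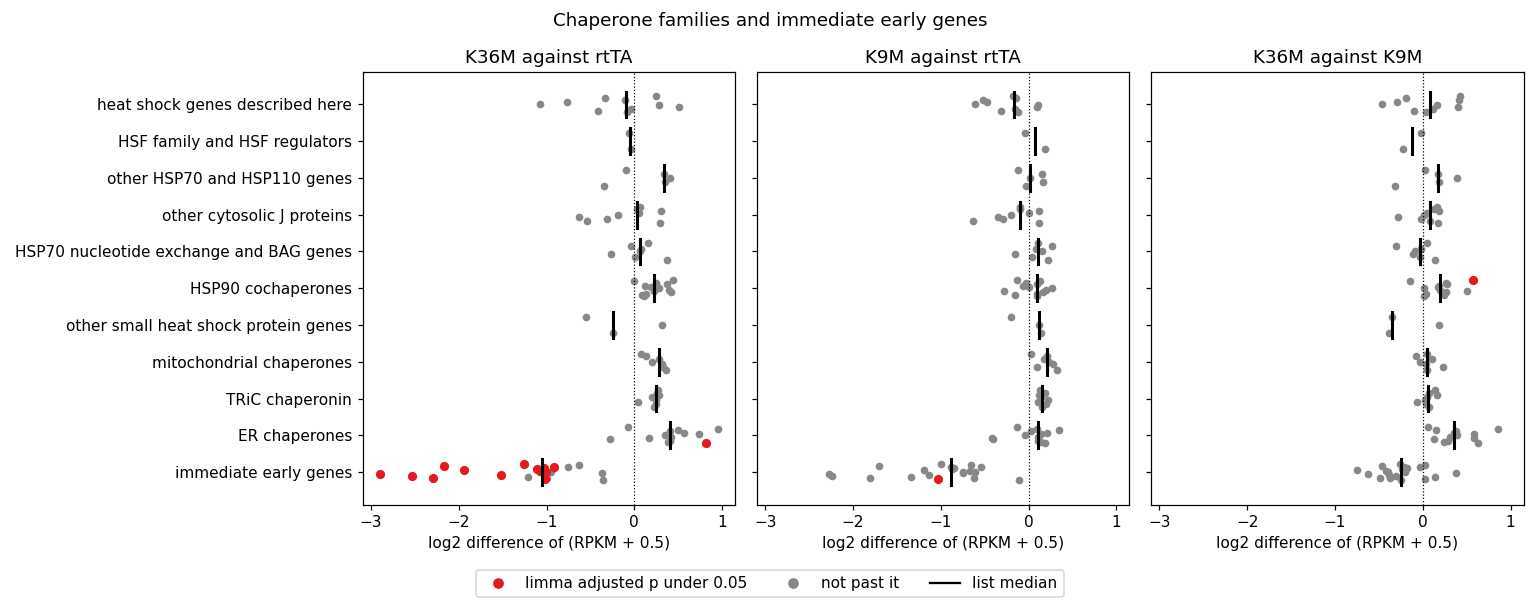
Log2 difference of RPKM + 0.5 (horizontal axis) for each tested gene of 11 lists (rows) in the 3 comparisons, with red points past a limma adjusted p of 0.05 and black lines at list medians. The 10 heat shock genes in the top row spread on both sides of 0 with no red point, while the 20 immediate early genes in the bottom row all lie left of 0 against rtTA.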

How the data were processed

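RNA of sorted LSK cells from 9 mice was sequenced, 3 libraries per group. The authors deposited 1 table of RPKM values, scaled to transcript length and library size, for 37882 genes. The submitters' processing notes name CASAVA 1.7, STAR and mm10. How reads that match several places, or the strand, were handled is not given in the sources used here. No pair of libraries held identical values. Groups came from sample titles, and per the series design text each replicate is a separate mouse. Loci and gene lengths are from GENCODE M21, on the same build. Depth was read from the steps of low values. It is approximate, since only 50.8% to 52.6% of low values (20 reads or fewer) were whole numbers of reads to within 0.02, so no count test was run.

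A log2 scale with 0.5 added to each RPKM was used, on 12926 genes reaching 1 RPKM in 3 or more libraries. Differences of low genes are understated there. Group means over all 9 libraries were estimated in limma 3.58.1 (R 4.3.3, eBayes with its trend option, two-sided), with Benjamini-Hochberg adjustment over all tested genes and a threshold of 0.05. The fit was tested on simulated data. The 10 genes and 17 further lists (157 entries in all) were chosen with earlier results of these data known. Genes named from the chaperone and immediate early lists are mostly up to 4 called members, or the 2 with the smallest p, and not all are printed. From the marker lists, genes were named to show what the sums pool. As a check of pairing, deviations from group means were correlated between libraries of the same number. Between K36M and rtTA these correlations were 0.369 to 0.414, each over the 0.1 used as a threshold. Libraries of different numbers correlated there at -0.377 to 0.013. The 3 same-number values are not independent, since deviations within a group sum to 0. The labels give no pairing, so a pairing of mice was not established. With the replicate number as a block, the count of all genes called in K36M against rtTA was 301 in place of 194, and no heat shock gene was called. Copies were found with blastn 2.17.0 from M21 coding sequences, and coding identity with Biopython 1.88; the planned protein identity was replaced by it. Alternatives were other pseudocounts, filters, scalings, priors, weights, a replicate block, 2 groups only and leaving out each library.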

Additional observations from a re-analysis of the deposited data

How the results depend on the processing

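None of the 10 heat shock genes was called by limma in any comparison under any of the 19 alternative settings. Counts over all genes moved more. K9M against rtTA called 15 genes, against 4 with no filter, 8 with quantile normalization, 62 with library weights and 6 to 36 without single libraries. K36M against rtTA called 194, against 76 with no filter, 129 with a filter at 5 RPKM, 301 with the replicate block, 25 with only the 2 groups compared and 10 to 402 without single libraries. K36M against K9M called 326, against 118 with no filter, 589 with library weights, 595 with the replicate block, whose numbers did not pair these groups, and 15 to 509 without single libraries. The cause was not tested. With the block, the median rank of residual SD was 69.65% of tested genes in place of 74.05%, and no call of the 10 genes changed.

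In K36M against K9M some differences near 0 turned sign. These were *Hspa1b* (0.014) and *Hspb1* (0.102) without K36M replicate 3, *Dnajb1* without K9M replicate 2 (0.017) or K36M replicate 3 (0.016), and *Dnaja1* with quantile normalization (-0.001), without K9M replicate 3 (-0.062) or without K36M replicate 2 (-0.049). Over fits without 1 library these differences ran from -0.595 to 0.014 for *Hspa1b*, -0.445 to 0.102 for *Hspb1*, -0.171 to 0.017 for *Dnajb1* and -0.062 to 0.152 for *Dnaja1*. With library weights 5 of the 10 genes were negative in K36M against rtTA in place of 7, and with quantile normalization all 10 in K9M against rtTA in place of 8. The residual SD of 3 mice a group limits what can be seen, most of all for *Hsph1*, which had the largest of the 10 genes. The unknown sharing of reads with copies is a further limit for *Hspa1a*, *Hspa1b*, *Hspa8*, *Hspb1* and *Dnaja1*.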

Other observations

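*Gm26825*, annotated as a lincRNA on chromosome 5 (5781530 to 5783636) and 99.7% identical to the *Hspa8* coding sequence over 1852 bases, was singled out after its values were seen. It stood at 43.03, 1.74 and 1.42 RPKM in K36M replicates 1 to 3, at 43.2, 41.4 and 39.8 RPKM in K9M replicates 1 to 3 and at 1.78, 1.53 and 1.36 RPKM in rtTA replicates 1 to 3. K36M replicate 1 thus lay with the K9M mice and apart from the other K36M mice. *Hspa8* itself was at 654.7 RPKM in K36M replicate 1 and 574.8 to 695.6 RPKM in K9M mice, against 786.8 to 1083 RPKM in the other 5 libraries. The part of one in the other was not tested. The log2 difference of *Gm26825* was 1.48 in K36M and 4.35 in K9M against rtTA, and limma called neither (adjusted p = 0.451 and 0.249).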
